A study of Mus musculus with 24 samples.

Results

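Hippocampal mRNA of adult female mice lacking the stress-related co-chaperone FKBP51 in forebrain glutamatergic neurons was compared between early life stress (ELS) and control rearing. The comparison rests on 12 of the 24 sequenced mice, those labelled as knockouts, with 6 ELS and 6 control animals. These Fkbp5Nex mice carried floxed Fkbp5 alleles (Fkbp5lox/lox) and Cre recombinase expressed from the Nex (Neurod6) locus, on a C57BL/6 background, so the deletion was present in the ELS and the control group alike. ELS consisted of limited bedding and nesting material from the second to the ninth postnatal day, and controls kept standard nest material. The animals went through behavioural testing at 6 months and a brain scan before the brains were snap-frozen, and RNA came from 1 mm punches of dorsal and ventral hippocampus. The remaining 12 mice, 6 ELS and 6 control, were Fkbp5lox/lox animals without Cre, which entered the fit and are given beside the results. Nex-Cre acts in pyramidal neurons and spares dentate granule cells, interneurons and glia. ELS acts on a dam and its whole litter, and as the labels name no litters, p-values measure the spread between these mice only. The question of the comparison was whether ELS leaves a lasting mark on hippocampal gene expression when neuronal FKBP51 is missing.

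FKBP51, encoded by Fkbp5, binds the Hsp90 complex of the glucocorticoid receptor and lowers the receptor's affinity for its hormone. Glucocorticoids in turn induce Fkbp5, which closes a short negative feedback loop. The hippocampus is rich in both corticosteroid receptors, and its dentate gyrus, CA fields and interneurons differ widely in the genes they express, so the cells caught in a punch shape a bulk profile.

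The deleted gene followed the labels. Fkbp5 stood at 8.71 to 26.5 CPM, counted reads scaled to library size, in Fkbp5Nex controls, with a median of 12.5, and at 10.0 to 23.1 CPM in Fkbp5Nex ELS mice, with a median of 12.0. In the Fkbp5lox/lox mice it ranged from 47.7 to 63.4 CPM under control rearing and from 56.4 to 62.2 CPM after ELS, so no knockout overlapped a mouse without Cre. The residual level was highest in control mouse 12, at 26.5 CPM, and in ELS mouse 60, at 23.1 CPM, the same animals that were highest for dentate granule cell genes. Between ELS and control Fkbp5Nex mice, Fkbp5 had a log2 fold change of 0.25 ± 0.16 (SE, edgeR p = 0.118, exact permutation p = 0.972), and of -0.03 without surrogate variables. Neurod6, whose locus carries Cre, had medians of 159 and 153 CPM in control and ELS Fkbp5Nex animals, below the 259 and 255 CPM of the Fkbp5lox/lox animals. Libraries were even, with 19345388 to 23527869 counted reads and 22868 to 23987 detected genes per mouse. Mitochondrially encoded genes took 5.17% to 7.47% of the reads, most in control mouse 12.

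No gene passed a false discovery rate (FDR) of 0.02 between ELS and control Fkbp5Nex mice. Of 16209 genes tested with edgeR's quasi-likelihood test in a fit with 5 surrogate variables, 0 passed (0.0%), and the smallest Benjamini-Hochberg adjusted p was 0.9996. At an unadjusted p under 0.05, 254 genes were higher after ELS (1.57%) and 200 were lower (1.23%), together 454 (2.8%). The exact permutation test on log2 CPM over all splits of the 12 mice into 6 and 6 gave p under 0.05 for 418 genes, 2.58%, and its smallest possible p is 0.002165. The median log2 fold change over all genes was 0.0037. The split by direction depended on the fit: with no surrogate variables 136 were higher and 360 lower at the same threshold, and only 148 of the 454 genes passed in both fits in the same direction, which is 32.6% of the first list and 29.8% of the second.

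In the fit with 5 surrogate variables, the absence of calls came with narrow intervals for most genes. Some of these intervals left out the estimate of the fit without surrogate variables. The choroid plexus gene Ttr had 0.97 to 3.21 and the astrocyte gene Gfap -0.98 to 0.06, beside estimates of -0.86 and -1.17 without surrogate variables. Leaving these variables out raised the SE of Ttr from 0.54 to 1.58 and of Adra2c from 0.11 to 0.19. It lowered that of Ctla2b from 0.28 to 0.25. Among Fkbp5Nex mice, 0.40% to 29.6% of each surrogate variable lay between ELS and control, so the adjustment partly overlapped the comparison. The shares below and the 95% intervals of single genes hold for this fit only. The 95% interval of the log2 fold change lay within ±1, a 2-fold change, for 97.4% of the 16209 genes, and within ±0.5 for 79.5%. Among the 2296 genes at 100 CPM or more, 95.2% had an interval within ±0.25, whereas none of the 1077 genes below 1 CPM did. A change of moderate size in a gene below 1 CPM was therefore not detectable at this depth, and only 1.21% of these genes had an interval within ±0.5.

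**Figure D1:**
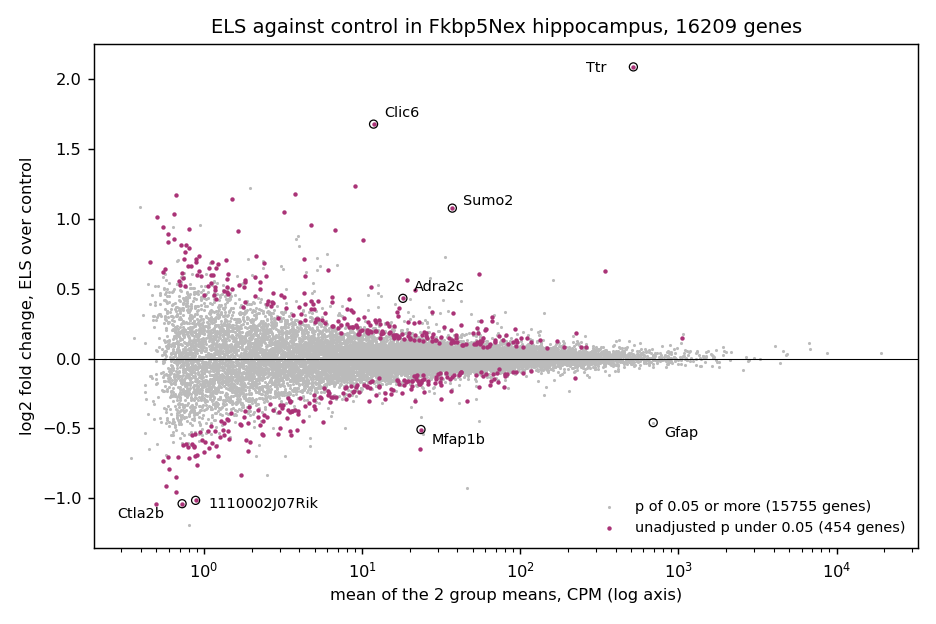
Log2 fold change of ELS over control in Fkbp5Nex hippocampus for 16209 genes (vertical axis) against the mean of the group means in CPM (horizontal log axis). Purple points are the 454 genes at an unadjusted p under 0.05, none of which passed an FDR of 0.02, and circles mark 8 genes described in the text. The cloud narrows as the level rises, and Ttr and Clic6, choroid plexus genes, lie highest.

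The 3 genes with the smallest p on the lower side were few-read transcripts and members of close gene pairs. 1110002J07Rik, a long non-coding RNA gene on chromosome 10 (66912489 to 66920258, minus strand), had 0.691 to 1.80 CPM in controls, median 1.13, and 0.457 to 0.793 CPM after ELS, median 0.576. This gave a log2 fold change of -1.02 ± 0.21 (SE, edgeR p = 9.35e-05, exact permutation p = 0.00649), carried by 9 to 37 reads per mouse. Mfap1b (chromosome 2, 121460235 to 121474067, minus strand) encodes a splicing-associated protein, and its near-identical copy Mfap1a may share its reads, so its level is uncertain. It stood at 20.7 to 32.9 CPM in controls, median 28.1, and at 18.0 to 21.5 CPM after ELS, median 19.4, and overlapped only through control mouse 64. The log2 fold change was -0.51 ± 0.11 (SE, edgeR p = 0.000145, exact permutation p = 0.00433), and -0.51 also without surrogate variables.

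Ctla2b (chromosome 13, 60895350 to 60897447, minus strand), which encodes a cysteine protease inhibitor, separated the groups completely. Complete separation by itself sets the exact permutation p to its smallest possible value. Controls had 0.909 to 1.42 CPM, median 0.981, and ELS mice 0.335 to 0.510 CPM, median 0.415, from 7 to 31 reads per mouse. The log2 fold change was -1.04 ± 0.28 (SE, edgeR p = 0.00108, adjusted p = 0.9996, exact permutation p = 0.002165), and the adjusted p ranged from 0.165, with the 12 mice alone, to 1.0 over the alternatives. Its paralog Ctla2a is close in sequence, and 3 annotated genes overlap Ctla2b on the same strand, so the counting may have divided its reads. In Fkbp5lox/lox mice the ELS difference of Ctla2b was 0.16 ± 0.26 (SE), and the test of the interaction of ELS and genotype gave an edgeR adjusted p of 0.9995.

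Further genes among the 8 lowest p on this side were Nup37, a nuclear pore subunit, Ndufb2, a subunit of mitochondrial complex I, and Abca7, a lipid transporter. Nup37 had 3.82 to 5.07 CPM in controls and 2.84 to 3.83 CPM after ELS, with a log2 fold change of -0.51 ± 0.14 (SE, edgeR p = 0.00139, exact permutation p = 0.00433). Ndufb2 had 12.2 to 21.3 CPM in controls and 14.9 to 18.7 CPM after ELS, so the ELS values lay inside the control range, and its permutation p was 0.351. The non-coding transcript Gm10863 and the zinc finger gene Zfp760 were also on this side, at log2 fold changes of -0.60 and -0.24.

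On the higher side, Adra2c had the smallest p. This gene (chromosome 5, 35278319 to 35281763, plus strand) encodes the alpha-2C adrenergic receptor, an inhibitory receptor for noradrenaline. Controls had 10.2 to 28.5 CPM, median 15.6, and ELS mice 16.7 to 22.7 CPM, median 18.4, so all ELS values lay within the control range. The log2 fold change was 0.43 ± 0.11 (SE, edgeR p = 0.000600) with surrogate variables and 0.21 without them (p = 0.291 in edgeR), and the exact permutation test of the raw levels gave p = 0.255. Gorab, a Golgi protein gene, had medians of 11.6 CPM in controls and 13.7 CPM after ELS, and Slc16a9, a monocarboxylate transporter gene, of 1.92 and 2.12 CPM. For both, the ELS values again lay within those of the controls.

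Sumo2, a small ubiquitin-like modifier that is attached to target proteins, had a wide range of levels, from 14.2 to 57.2 CPM in controls, median 22.8, and from 29.0 to 64.5 CPM after ELS, median 42.0. This amounted to a log2 fold change of 1.08 ± 0.29 (SE, edgeR p = 0.00114, exact permutation p = 0.102), and to 0.57 ± 0.37 without surrogate variables (SE). Sumo2 has processed pseudogenes that may share its reads, and the same caution holds for the pseudogene Gm2830, at 0.93 ± 0.24 (SE, edgeR p = 0.000818, exact permutation p = 0.139) from 6 to 26 reads per mouse. Ndufa12, a complex I subunit gene, showed a similar spread, with 26.9 to 97.0 CPM in controls and 35.0 to 70.0 CPM after ELS.

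**Figure D2:**
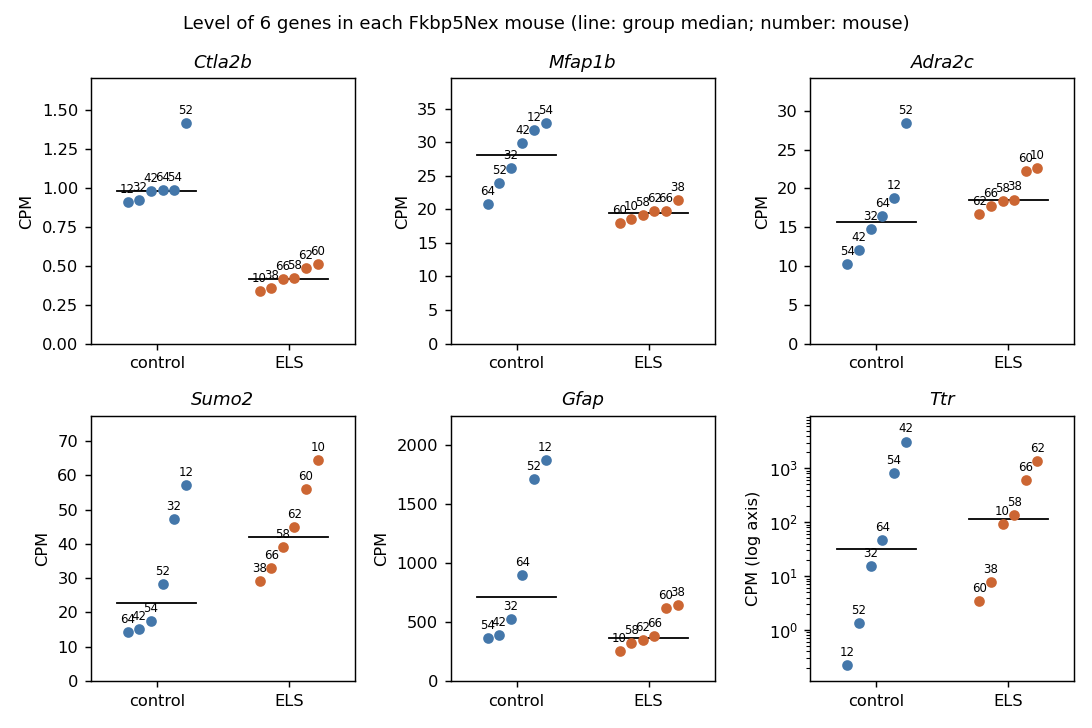
Level in CPM of 6 genes in each Fkbp5Nex mouse, 6 control and 6 ELS, with the group median as a line and the mouse number beside each point; the axis is logarithmic for Ttr and starts at 0 for the others. Ctla2b is the only one of the 6 whose groups do not overlap, Mfap1b overlaps through control mouse 64, and Ttr spans 0.227 to 3132 CPM within the controls.

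Complete separation of the groups was rare. For 5 genes (0.0308%) all 6 ELS values lay above all 6 control values and for 6 genes (0.037%) below them, 11 of 16209 in all (0.0679%), and only 5 of the 11 had an edgeR p under 0.05. Amy1, the salivary-type amylase gene, had 17.3 to 21.0 CPM in controls and 21.2 to 25.2 CPM after ELS, with a log2 fold change of 0.17 ± 0.07 (SE, edgeR p = 0.0210, exact permutation p = 0.002165). Usp37, a deubiquitinating enzyme gene, was separated by a narrow margin, with 21.4 to 28.6 CPM in controls and 28.6 to 30.2 CPM after ELS. Zfp619 completed the named genes on this side, with 5.21 to 6.46 CPM in controls and 6.53 to 7.83 CPM after ELS.

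On the other side, Hfe encodes a regulator of iron uptake. Controls had 6.09 to 8.05 CPM, median 6.47, and ELS mice 4.71 to 5.50 CPM, median 5.24, without overlap. The log2 fold change was -0.15 ± 0.11 with surrogate variables (SE, edgeR p = 0.177, exact permutation p = 0.002165) and -0.41 without them. Tmem168, a transmembrane protein gene, stood at 20.6 to 22.9 CPM in controls and 19.1 to 20.6 CPM after ELS, and the non-coding genes Gm26767 and 2310009A05Rik had medians of 3.84 and 1.93 CPM in controls against 3.06 and 1.45 CPM after ELS. For each of these genes the permutation p was the smallest possible, 0.002165. Complete separation fixes that value by itself, so it only repeats the rule by which the non-overlapping genes were named. The smallest adjusted p of the permutation test over all genes was 1.0.

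Genes of the glucocorticoid system lay close to no difference. All 11 tested members of the corticosteroid and CRH receptor list had p of 0.05 or more. Their median log2 fold change was 0.03, and 0.05 without surrogate variables. The glucocorticoid receptor gene Nr3c1 had 69.5 to 99.4 CPM in controls, median 78.8, and 75.0 to 97.5 CPM after ELS, median 83.8. Its log2 fold change was 0.03, with a 95% interval from -0.12 to 0.18. Nr3c2, the mineralocorticoid receptor gene, had 152 to 215 CPM in controls, median 172, and 190 to 217 CPM after ELS, median 196, a difference of 0.08 ± 0.06 with surrogate variables (SE, edgeR p = 0.176, exact permutation p = 0.0433). Without surrogate variables the log2 fold change of Nr3c2 was 0.17. Crh, which encodes corticotropin-releasing hormone, was low in both groups, at 0.955 to 2.22 and 1.07 to 2.43 CPM.

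The 20 tested genes that glucocorticoids induce had a list median of -0.0022, and of -0.08 without surrogate variables. At an unadjusted p under 0.05, 0 of them were higher and 1 was lower (1.57% and 1.23% over all genes). The exception was Hif3a, an oxygen-regulated transcription factor gene, with 2.79 to 5.27 CPM in controls, median 3.87, and 2.37 to 4.15 CPM after ELS, median 2.94. The log2 fold change was -0.52 ± 0.19 (SE, edgeR p = 0.0109, exact permutation p = 0.0844), and the ranges overlapped. Some classical target genes, picked after their values were seen, were tightly bounded. Their 95% intervals were -0.14 to 0.12 for the kinase gene Sgk1, -0.17 to 0.17 for Tsc22d3, which encodes GILZ, and -0.17 to 0.16 for the clock gene Per1. Other members were bounded less tightly, with -1.03 to 0.22 for Plin4, -0.70 to 0.17 for Angptl4 and -0.16 to 0.26 for Mt1. None of the 15 FKBP and Hsp90 chaperone genes, the machinery that folds the receptor, passed p under 0.05. Hspa8, the most abundant of them, had medians of 1848 CPM in controls and 1804 CPM after ELS, and Hsp90ab1 of 1784 and 1745 CPM. The 11 genes of the FKBP51 partner list, among them the kinase gene Akt1, likewise held 0 at that threshold, with log2 fold changes from -0.06 to 0.07.

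In the fit with surrogate variables, synaptic and activity-regulated genes also lay close to no difference. In lists that cover AMPA, NMDA and kainate receptors (15 tested), metabotropic glutamate receptors (7), GABA receptors (14), postsynaptic scaffolds (17) and synaptic adhesion (13), 0 members had p under 0.05 in either direction, and the medians lay between -0.02 and 0.01. Without surrogate variables the medians of these lists lay between 0.02 and 0.06. Gria1, the AMPA receptor subunit GluA1, had 986 to 1140 CPM in controls and 1100 to 1142 CPM after ELS, a log2 fold change of 0.04 ± 0.04 (SE, edgeR p = 0.322, exact permutation p = 0.0152). Without surrogate variables the log2 fold change of Gria1 was 0.10. Of 19 immediate early genes, which neurons switch on within minutes of activity, 0 passed, and Npas4 had the smallest p, with medians of 3.93 CPM in controls and 5.48 CPM after ELS (log2 fold change 0.41 ± 0.25, SE, edgeR p = 0.117, exact permutation p = 0.05195). The neurotrophin gene Bdnf had medians of 43.4 and 40.0 CPM and a 95% interval from -0.17 to 0.18.

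Single members of further neuronal lists reached p under 0.05, beside a share of 2.8% over all tested genes. Htr2a, the serotonin 2A receptor gene, was 1 of 11 serotonin receptor genes, with 3.84 to 9.62 CPM in controls, median 7.12, and 8.11 to 12.5 CPM after ELS, median 10.3. The difference on the log2 scale was 0.34 ± 0.14 (SE, edgeR p = 0.0291, permutation p = 0.0216), and 3 control mice, 12, 32 and 64, overlapped the ELS range. Bhlhe41, a repressor in the circadian clock and 1 of 16 clock genes, had a log2 fold change of 0.26 ± 0.09 (SE, edgeR p = 0.00780), but its raw medians were 19.8 and 21.1 CPM and its permutation p 0.849. Nrgn, neurogranin, was the 1 of 8 excitatory neuron genes, at 0.15 ± 0.06 (SE, edgeR p = 0.0238, exact permutation p = 0.327).

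**Figure D3:**
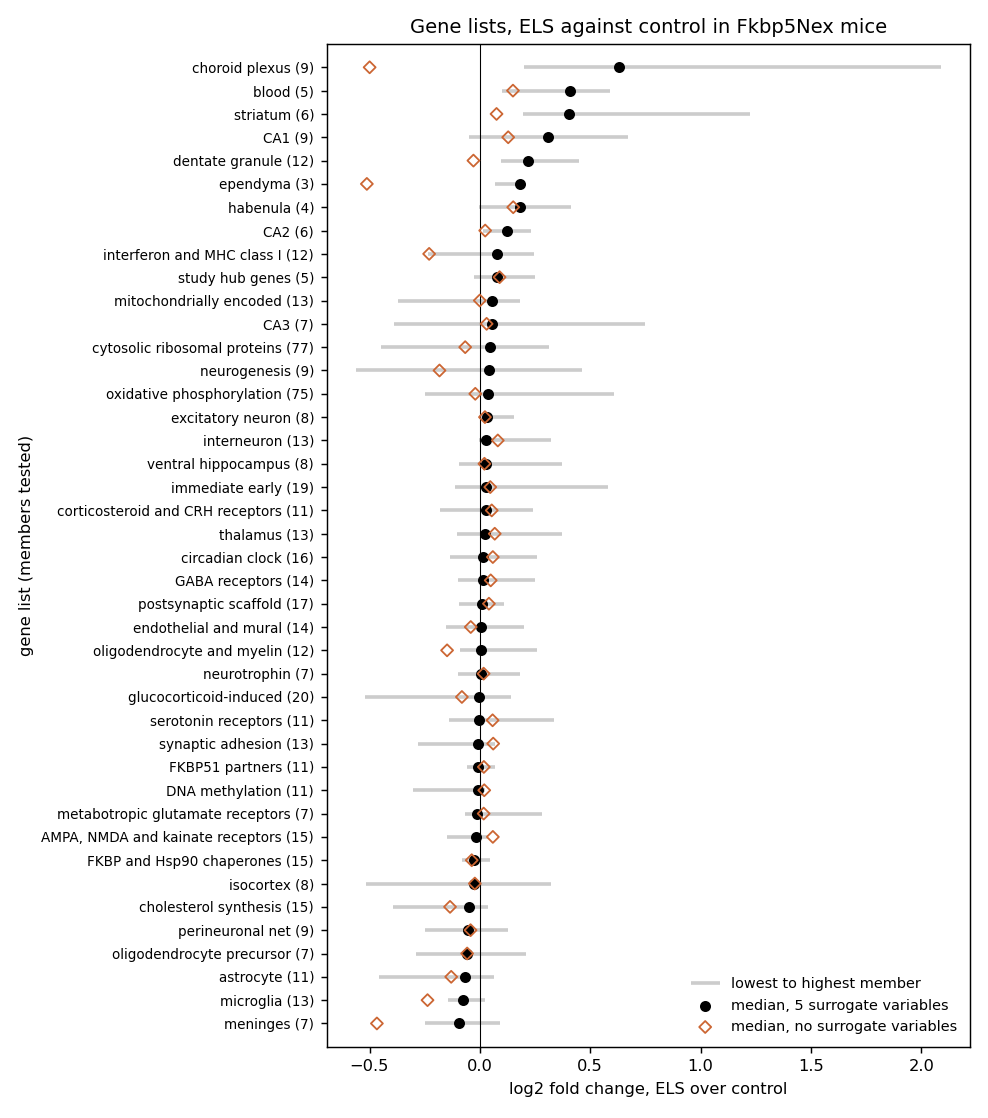
Median log2 fold change of ELS over control for 42 gene lists in Fkbp5Nex mice (horizontal axis; number of tested members in brackets), with 5 surrogate variables (black) and without them (orange diamonds), and the lowest to highest member in the fit with surrogate variables (grey). Medians of 34 lists lie within 0.1 of 0, and the choroid plexus and ependyma lists change sign between the fits.

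Over all 42 lists, no member passed the FDR, and 16 list medians changed sign when surrogate variables were left out. In 31 lists no member had p under 0.05, beside a share of 2.8% over all genes, at which most short lists would hold none. In bulk tissue, fewer cells of a type and less RNA per cell cannot be told apart.

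The choroid plexus list had the most extreme median, 0.63. Of 9 tested members, 6 were higher at p under 0.05 and 0 lower, beside 1.57% and 1.23% over all genes. The median over the members of the raw difference of mean log2 CPM was -0.0086. This tissue projects into the ventricles, close to the edge of the hippocampus, and secretes cerebrospinal fluid. Ttr, the thyroid hormone carrier transthyretin and the most abundant choroid plexus transcript, had 0.227, 15.7, 3132, 1.37, 821 and 47.2 CPM in control mice 12, 32, 42, 52, 54 and 64, in that order. In ELS mice 10, 38, 58, 60, 62 and 66 it had 93.8, 7.71, 136, 3.42, 1355 and 611 CPM. Both the lowest and the highest of the 12 values were those of controls, and the ELS range lay inside theirs.

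The sign of the Ttr difference depended on the model. With surrogate variables its log2 fold change was 2.09 ± 0.54 (SE, edgeR p = 0.000859), without them -0.86 ± 1.58 (SE, edgeR p = 0.590), and the permutation test on log2 levels, with a mean difference of 1.39 in favour of ELS, gave p = 0.582. Clic6, a choroid plexus chloride channel gene, went from 1.68 to -0.55 between the same fits, and Cldn2, a tight junction gene of this epithelium, from 0.96 to -0.72. The list median was -0.50 without surrogate variables and -0.94 when control mice 12 and 52 were also left out. The summed level of the 9 genes was 118 to 4931 CPM in controls and 115 to 2292 CPM after ELS. Of the 15 genes in the list, 6 were too low in part of the mice to be tested, among them Folr1 and Otx2, with 0 to 412 and 2 to 425 reads. The part of punch composition in these differences was not tested.

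Neuronal subfield genes also varied between mice more than between groups. All 12 dentate granule genes had a positive log2 fold change, median 0.22, but only 1 had p under 0.05, and the median was -0.03 without surrogate variables. Prox1, the transcription factor that maintains granule cell identity, had 34.1 to 196 CPM in controls, median 54.9, and 48.7 to 128 CPM after ELS, median 50.5, the highest values being those of control mouse 12 and ELS mouse 60. CA1 pyramidal genes had a median of 0.31 over 9 members with 0 at p under 0.05, and Fibcd1 ranged from 43.5 to 218 CPM in controls, with control mouse 42 lowest in the CA1 score, and from 140 to 232 CPM after ELS. The CA2 list, at 0.12 over 6 genes, the CA3 list, at 0.05 over 7, and the ventral hippocampus list, at 0.03 over 8, held 0 genes at that threshold. The 13 interneuron genes had a median of 0.03 and 0 at that threshold, with Gad1, which makes GABA, at medians of 406 CPM in both groups.

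Markers of neighbouring regions were examined for what else the punches held. The 13 tested thalamus genes had a median of 0.03 and 0 at p under 0.05. Slc17a6, the vesicular glutamate transporter of thalamic relay cells, had 3.27 to 20.1 CPM in controls and 2.45 to 37.6 CPM after ELS, with ELS mouse 66 highest. The summed thalamus level was 167 to 350 CPM in controls and 164 to 460 CPM after ELS. The 4 tested habenula genes had a median of 0.18, and of 0.15 without surrogate variables, with 0 at p under 0.05. Their mean z-score ran from -0.77 to 0.31 in controls, with mouse 32 alone above 0, and from 0.01 to 0.76 after ELS, and their summed level from 38.2 to 57.6 CPM and from 42.9 to 55.9 CPM. Nwd2 made up most of this sum, at 33.7 to 54.9 CPM in controls and 37.9 to 50.8 CPM after ELS (log2 fold change -0.0047). Chrna3 and Gpr151 reached at most 1.49 and 1.18 CPM. The habenula markers Pou4f1, with 0 to 2 reads, and Chrnb4, with 1 to 17, were too low to be tested. Striatal genes had a median of 0.40 over 6 members, and of 0.08 without surrogate variables. Of these members 2, Ppp1r1b and Adora2a, had p under 0.05 (2.8% over all genes), while the raw medians of Ppp1r1b were 26.6 and 27.2 CPM. The median over the striatal members of the raw difference of mean log2 CPM was -0.03. The striatal marker Six3 was at 0 in 1 mouse and could not be tested. Isocortical genes centred at -0.03 over 8 members, and Lamp5, also an interneuron gene, was the 1 at p under 0.05, with 23.9 to 46.1 CPM in controls and 35.2 to 51.7 CPM after ELS.

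**Figure D4:**
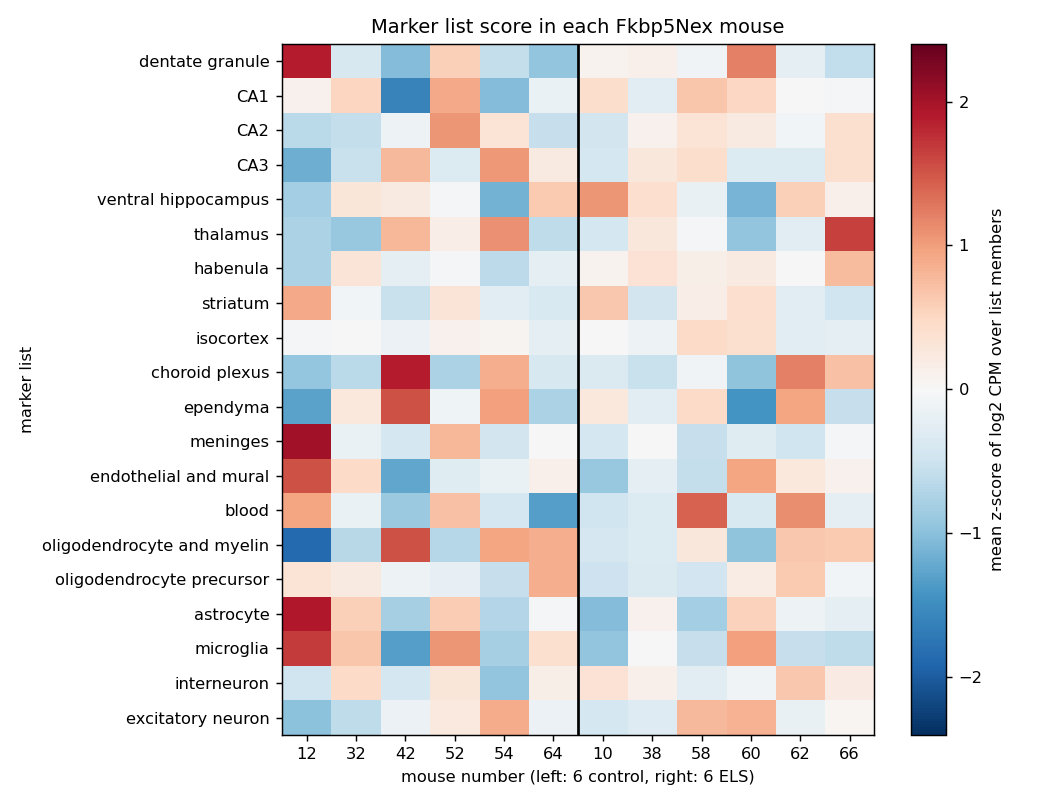
Mean z-score of log2 CPM over the tested members of 20 marker lists (rows) in each of the 12 Fkbp5Nex mice (columns, 6 control on the left, 6 ELS on the right). Control mouse 12 is highest for dentate granule, astrocyte and meninges lists, at 1.89, 1.92 and 2.01, control mouse 42 for the choroid plexus list, at 1.88, and ELS mouse 66 for the thalamus list, at 1.63.

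Astrocyte and microglia genes had mostly negative log2 fold changes, but no member passed p under 0.05. Of 11 astrocyte genes 9 had a negative log2 fold change, median -0.07, and of 13 microglia genes 12 did, median -0.07. Gfap, the intermediate filament of astrocytes, had 362 to 1871 CPM in controls, median 710, and 257 to 640 CPM after ELS, median 365. Its log2 fold change was -0.46 ± 0.25 with surrogate variables (SE, edgeR p = 0.0806, exact permutation p = 0.0909) and -1.17 ± 0.35 without them (SE, edgeR p = 0.00245, adjusted p = 0.9999). The highest values were those of control mice 12 and 52, at 1871 and 1707 CPM. Without these mice the log2 fold change was -0.41 ± 0.29 (SE) with surrogate variables and -0.34 ± 0.28 (SE) without them. Vim, the filament protein vimentin of astrocytes, meninges and vessels, had 35.6 to 95.1 CPM in controls, median 48.1, and 24.2 to 44.4 CPM after ELS, median 32.6. The log2 fold change was -0.30 ± 0.10 with surrogate variables (SE, edgeR p = 0.00466, exact permutation p = 0.0195) and -0.84 ± 0.21 without them (SE, edgeR p = 0.000651). With control mice 12 and 52 also left out of the latter fit it was -0.34 ± 0.16 (SE), and the smallest adjusted p of Vim in edgeR, with composition scores as covariates, was 0.54. Oligodendrocyte and myelin genes had a median of 0.0038 over 12 members, endothelial and mural genes 0.0044 over 14 and meningeal genes -0.09 over 7, each with 0 at p under 0.05. Without surrogate variables the medians were -0.15 for oligodendrocyte and myelin genes, -0.47 for meningeal, -0.24 for microglia and -0.13 for astrocyte genes, and with control mice 12 and 52 also left out -0.45, -0.07, -0.03 and 0.0048. All 5 blood genes had a positive log2 fold change, with a median of 0.41 and of 0.15 without surrogate variables, and Hbb-bt, a haemoglobin chain, was the 1 at p under 0.05, with medians of 3.72 CPM in controls and 4.58 CPM after ELS.

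Housekeeping pathways had medians close to 0. The 77 tested cytosolic ribosomal protein genes had a median of 0.05, with 68 positive and 0 at p under 0.05, and a median of -0.07 without surrogate variables. The 75 oxidative phosphorylation genes had a median of 0.04, with Ndufa12 higher and Ndufb2 lower at p under 0.05. Cholesterol synthesis genes, which astrocytes and myelinating cells use heavily, had a median of -0.05 over 15 members and 0 at that threshold. The interferon and MHC class I list, median 0.08 over 12, and the DNA methylation list, median -0.0090 over 11, held 0 as well. The interferon and MHC class I median turned negative without surrogate variables, at -0.23, and without control mice 12 and 52, at -0.12. Of the 9 perineuronal net genes, Tnr, an extracellular matrix protein gene, was the 1 at p under 0.05, with medians of 229 and 219 CPM (edgeR p = 0.0469, exact permutation p = 0.909).

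Control mice differed from each other more than ELS mice did. The median SD of log2 CPM was 0.219 among controls and 0.140 among ELS mice, and the SD was larger in controls for 12583 of 16209 genes, 77.6%. The biological coefficient of variation, edgeR's measure of spread beyond counting error, was 0.196 in controls and 0.112 after ELS. The difference came with control mice 12 and 52. Leaving out mouse 12 gave 67.7%, leaving out mouse 52 gave 66.5%, and without both the share was 47.4%, with a median SD of 0.134 in controls. These mice were picked because they stood apart, so their removal had to lower the spread. In the Fkbp5lox/lox mice the share was 49.8%, with median SDs of 0.156 in controls and 0.160 after ELS.

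The main axes of variation did not follow rearing. The first principal component held 31.5% of the variance over the 12 mice, and 1.94% of it lay between ELS and control. Its high end was led by Ttr, Clic6, F5 and Cldn2 of the choroid plexus and by cilia genes such as Ccdc153 and Drc7, with control mouse 42 at a score of 31.1. Its low end held Rprm and C1ql2, granule cell genes, with control mouse 12 at -44.1, ELS mouse 60 at -25.0 and control mouse 52 at -24.3. The second component, 17.7%, set control mouse 52 at -46.1 against control mouse 12 at 25.9, and 1.61% of it lay between the groups. Of the first 4 components, the third, 9.86% of the variance, had the largest share between the groups, 28.1%, and ran from choroid plexus genes at the control end to Grp and Fibcd1 at the ELS end. Over all genes, 7% of the variance lay between ELS and control, where 2 groups of 6 drawn from the same population give 9.09% on average.

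**Figure D5:**
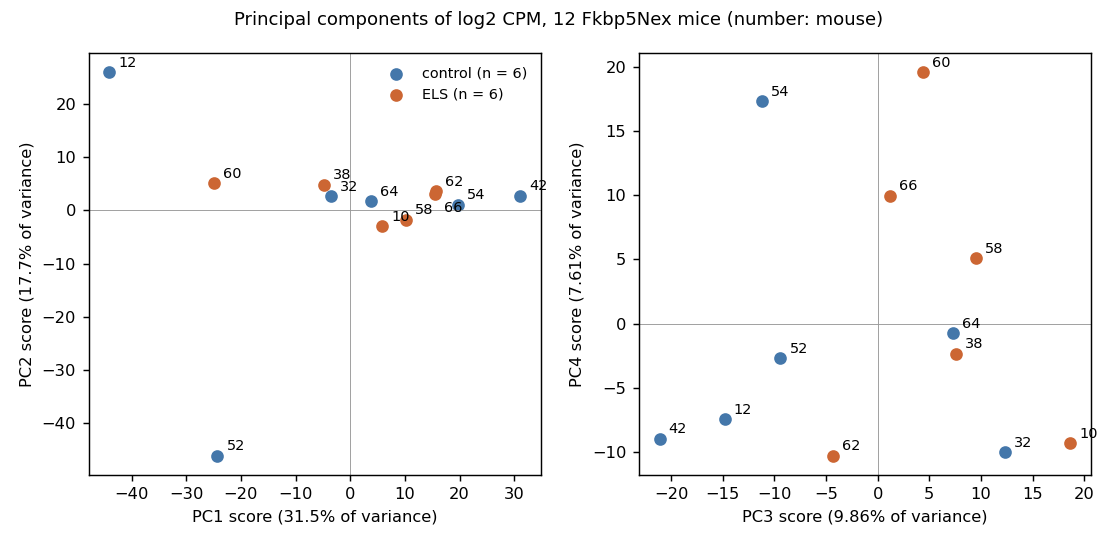
Scores of the 12 Fkbp5Nex mice on the first and second principal components of log2 CPM (left) and on the next pair (right), 6 control (blue) and 6 ELS (orange), with mouse numbers. Control mice 12 and 52 lie at 25.9 and -46.1 on the second component, away from the other 10 mice, and the groups mix on the first.

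Beside the ELS difference in Fkbp5lox/lox mice, nothing could be called particular to the knockouts. The test of the difference itself, the interaction of ELS and genotype, passed the FDR for 0 of 16209 genes (0.0%), with 336 above (2.07%) and 315 below 0 (1.94%) at an unadjusted p under 0.05, together 651 (4.02%), and a smallest adjusted p of 0.9995. ELS in Fkbp5lox/lox mice gave 0 genes past the FDR (0.0%) and 462 higher (2.85%) and 326 lower (2.01%) at an unadjusted p under 0.05, together 788 (4.86%). Of the 454 Fkbp5Nex genes, 10 were on that list in the same direction, 2.20% of the 454 and 1.27% of the 788, and 10 in the opposite direction. Fitted separately within each genotype without surrogate variables, the lists of 349 and 582 genes shared 16 in the same direction and 8 in the opposite one.

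Among the smallest interaction p were genes whose log2 fold changes had opposite signs in the genotypes. A ranking by interaction p favours such genes, so the opposite signs are no separate result. 1110002J07Rik had log2 fold changes of -1.02 in Fkbp5Nex and 0.41 in Fkbp5lox/lox mice (interaction in edgeR, adjusted p = 0.9995), and Mfap1b -0.51 and 0.19 (the same adjusted p). Scml4, a Polycomb-group gene, had -0.22 and 0.58. Among cholesterol synthesis genes, 0 of 15 passed p under 0.05 in Fkbp5Nex and 7 were higher in Fkbp5lox/lox mice (2.85% over all genes). Of these 15 genes, 4 had an interaction p under 0.05 (4.02% over all genes). Other lists also held such genes, among them 14 of 77 cytosolic ribosomal protein, 6 of 75 oxidative phosphorylation, 4 of 12 dentate granule and 3 of 7 CA3 genes. Dhcr7, which makes the last step to cholesterol, had -0.12 ± 0.06 and 0.17 ± 0.06 (SE, interaction in edgeR, adjusted p = 0.9995), and control mouse 52 had the highest cholesterol score, at 2.32, and ELS mouse 60 the lowest, at -1.08. Without control mice 12 and 52 the Fkbp5Nex list median was 0.03 in place of -0.05. The 5 hub genes that the study picked from these samples, which are therefore no independent evidence, had a median of 0.08 in Fkbp5Nex and 0.20 in Fkbp5lox/lox mice, with 0 at p under 0.05 in either genotype and in the interaction. Among them, Tcf7l2, a thalamic transcription factor, had 4.71 to 20.1 CPM in Fkbp5Nex controls and 6.32 to 22.4 CPM in Fkbp5Nex ELS mice.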

How the data were processed

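Bulk mRNA of hippocampal punches was sequenced in 24 female mice, 6 per group, and the labels gave each mouse's genotype, rearing and number. The table the authors deposited holds raw counts of reads for each gene. Per the labels' processing notes these come from HISAT2 2.0.5 and featureCounts 1.5.0-p3, with DESeq2 also named; the genome build, annotation and strand setting are not given in the sources used here, so reads of overlapping or near-identical genes may be mixed. Every per-sample column of the table was used.

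The filter kept 16209 of 46983 genes, those reaching 10 counts in each mouse of some group. They were tested with edgeR 4.0.16 (TMM, quasi-likelihood test, all 24 mice, group means and 5 surrogate variables from sva 3.50.0) with Benjamini-Hochberg adjustment at an FDR of 0.02. Surrogate variables and the FDR follow the study, which tested with DESeq2 after dropping an outlying library that is not named in the sources used here; no mouse was dropped here. CPM use TMM library sizes, and log2 CPM a prior count of 2. Two-sided exact permutation tests were run over the 12 mice. Standard errors are the fold change over the root of the F statistic (from the weighted design where F is near 0). List scores are means of z-scores over the 12 mice. Lists were described by counts and medians without a test. Scripts were tested on simulated data. DESeq2 1.42.0 was an alternative test. R was 4.3.3 and Python 3.11.15. Positions were looked up in GENCODE vM21 (GRCm38) by identifier, with 46488 of 46983 genes found; that this is the authors' build is not known.

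Genes were named by rule: Fkbp5 and Neurod6, the 8 smallest p in each direction, up to 3 genes by p and the most abundant gene of each of 42 lists, up to 5 non-overlapping genes per direction at 1 CPM or more, the 10 with the largest spread, genes called under an alternative and the 5 smallest interaction p. Nr3c1, Sgk1, Tsc22d3, Per1, Bdnf, Prox1, Rprm, C1ql2, Vim, Folr1, Otx2, Six3, Pou4f1 and Chrnb4 fall outside this rule and were added after their values were seen. The comparison and the lists were chosen with earlier results of these data known.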

Additional observations from a re-analysis of the deposited data

Results flagged for a closer look

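In 16 of 156 groups of 6 mice tested, covering the scores of 42 lists and the levels of 36 genes, 1 mouse stood apart from the other 5 by Dixon's test at the 95% level, which chance alone gives in about 1 of 20 groups. Control mouse 52 accounted for most of them. It was lowest for the scores of the corticosteroid and CRH receptors (-0.815), the FKBP51 partners (-1.14) and the neurotrophin list (-0.983) and highest for cholesterol synthesis (2.32). Of single genes, control mouse 52 was highest for Gm13889 (12.7 CPM), Ctla2b (1.42 CPM) and Upf3a (45.0 CPM) and lowest for Ndufb2 (12.2 CPM) and Usp37 (21.4 CPM). The Ctla2b groups do not overlap, and leaving out this mouse, the control farthest from the ELS mice, could not make them do so. Control mouse 12 was highest for the glucocorticoid-induced list (0.534) and for metabotropic glutamate receptors (0.653).

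Among ELS mice, mouse 60 was lowest for cholesterol synthesis (-1.08) and for Ak7 (0.0 CPM), an adenylate kinase of cilia, and highest for Gm13889 (11.1 CPM). ELS mouse 62 was highest for the glucocorticoid-induced list (0.586) and for Zfp619 (7.83 CPM). The part of punch composition in these values was not tested.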

How the results depend on the processing

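With no filter on low counts, 1 gene passed the FDR of 0.02 for ELS in Fkbp5Nex, the choroid plexus transporter gene Slc4a5 (log2 fold change 2.18 ± 0.30, SE, edgeR adjusted p = 0.00245), with 0 to 450 reads in controls, median 4, and 2 to 252 after ELS, median 25. It had too few reads in part of the mice for the filtered fits. Under every other alternative run the count stayed 0, including FDR 0.05, DESeq2's Wald test and leaving out each mouse in turn (range 0 to 0). The interaction count was 0 throughout, also on leaving out each mouse (0 to 0), and ELS in Fkbp5lox/lox gave 1 gene with DESeq2. The 454 genes at an unadjusted p under 0.05 became 1532 (1025 higher, 507 lower) with no filter, 944 (345 and 599) with thalamus, choroid plexus and dentate scores in place of surrogate variables, 496 (136 and 360) without surrogate variables, and 401 to 556 on leaving out each mouse. Without control mice 12 and 52, an alternative chosen after seeing the data, they were 610, and 458 with no surrogate variables as well. The first principal component held 46.0% of the variance over the 500 most variable genes, and the share of genes with larger SD in controls was 47.4% without mice 12 and 52. All 3496 values of the 184 named genes stayed on their side of the threshold. This could not be otherwise, as no gene passed the FDR in any fit counted here. For some genes the sign changed without surrogate variables, for Ttr from 2.09 to -0.86 and for Fkbp5 from 0.25 to -0.03. List medians were set against the SD, between mice of a group, of the list's mean log2 CPM. The choroid plexus median did not count as moved on this scale, though it went from 0.63 to -0.50. By this measure 247 of 252 list medians moved by less than 1 SD. The other 5 were the AMPA, NMDA and kainate receptor list without surrogate variables (0.06 in all 24 mice, 0.06 in the 12 mice alone) and with composition scores (0.06), and the striatum (0.03) and synaptic adhesion (0.10) lists with composition scores. The cause of these shifts was not tested. No paired analysis was possible because the groups share no mouse numbers. Depth limits statements on genes below 1 CPM.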
